A study of Mus musculus with 12 samples.

Results

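The genes described here carry the symbols of proteins of the cytosolic ribosome, though the annotation of the rows named Rps4y2 and Rpl24 differs, as given below. They were selected by symbol from the deposited count table (Rpl and Rps symbols with a number, Rplp0 to Rplp2, and Rpsa), leaving out pseudogenes with a -ps suffix and the S6 kinases, and by a mean of at least 100 counts over the 12 libraries. Of 85 symbols that matched, 81 reached that mean, 48 of the large and 33 of the small subunit, out of 38087 genes in the table. All 81 passed the filter on low counts that left 14235 genes for testing. The measured value in the selection was the mean count alone. The members just above it were Rps4y2 with a mean of 224 counts, Rpl22l1 with 453 and Rpl36a with 722. The 4 symbols below it were Rps12l1 with 0.917, Rpl39l with 0.5, Rpl3l with 0.333 and Rpl10l with 0.0833.

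Liver total RNA of male C57BL/6j mice, 13 to 16 weeks of age, was sequenced. All mice were germ-free, which means that they carried no microorganisms, so no group with a microbiota enters any comparison here. Of the 12 mice 6 had subcutaneous injections of recombinant human growth hormone (GH; the labelled amount is 50 µg for each mouse), and 6 had injections of phosphate-buffered saline (PBS). Both were injected at ZT 2 and ZT 14 on 5 days, where ZT counts hours from lights on, and livers were sampled at ZT 2. No transgene or engineered allele is named for either group. Libraries held between 19523104 and 23278931 counts. The question is whether the messenger RNAs of the ribosome itself differed between GH and PBS livers.

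Each cytosolic ribosome joins a large subunit, which forms peptide bonds, with a small subunit, which reads the messenger RNA, and most of its proteins are needed in equal number. Messenger RNAs of ribosomal proteins begin with a 5′ terminal oligopyrimidine (TOP) tract, a C followed by a run of pyrimidines, through which the mTOR pathway controls their translation. Because that control acts on translation, the level of the messenger RNA and the amount of protein made from it can part. The liver makes most plasma proteins, and GH acts on it through the GH receptor, JAK2 and STAT5.

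The tract is the sequence feature the family is known for, so the bases around the RefSeq start of transcription are shown for members to which the results below return. Each stretch runs 5′ to 3′ on the transcribed strand from 30 bases before to 20 bases from the annotated start (build GRCm38.p6). Capitals mark 1 run that begins with C and holds only pyrimidines (C or T), the one that begins nearest the annotated start. Other such runs stay in lower case, among them a longer one upstream of the marked run in Rps15a and longer ones in Rps27l. No capitals mean that no such run of at least 5 bases was found in the window.
Rps15a (chr7:118116128-118116177, minus strand): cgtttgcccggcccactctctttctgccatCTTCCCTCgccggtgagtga
Rpl38 (chr11:114668550-114668599, plus strand): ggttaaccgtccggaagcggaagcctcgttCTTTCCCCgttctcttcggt
Rps6 (chr4:86857348-86857397, minus strand): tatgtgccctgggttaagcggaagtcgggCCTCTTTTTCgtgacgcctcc
Rps27 (chr3:90213629-90213678, minus strand): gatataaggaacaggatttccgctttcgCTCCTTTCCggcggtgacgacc
Rpl13a (chr7:45128726-45128775, minus strand): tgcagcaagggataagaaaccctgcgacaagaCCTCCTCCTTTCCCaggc
Rpl22l1 (chr3:28805478-28805527, plus strand): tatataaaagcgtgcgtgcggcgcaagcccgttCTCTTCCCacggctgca
Rplp0 (chr5:115559437-115559486, plus strand): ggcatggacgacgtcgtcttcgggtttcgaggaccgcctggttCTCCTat
Rps27l (chr9:66946056-66946105, plus strand): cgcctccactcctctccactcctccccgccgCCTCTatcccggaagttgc
Rpl41 (chr10:128549149-128549198, minus strand): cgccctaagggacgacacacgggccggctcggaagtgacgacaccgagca
In Rps15a and Rpl38 the marked run begins at the annotated start itself. The run of Rps6 begins 1 base before it and that of Rplp0 begins 13 bases after it. Rpl41 has no run in its window.

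RefSeq held promoters for 60 of the 81 members, 71 promoters in all. A C at the annotated start followed by 4 pyrimidines stood in 13 of the 71 (18.3%), against 2.51% of all 32851 promoters in the table. Allowing the run to begin up to 10 bases to either side gave 53.5% of the members' promoters and 30.7% of all promoters. With 25 bases to either side these shares were 80.3% and 55.6%. Only the transcribed strand was searched, and a match describes letters near an annotated start, which may not be the base where transcription begins in liver.

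The ribosomal protein messenger RNAs were a little more abundant after GH in most livers, and of the 81 only Rplp0 rose by the test. The median log2 fold change of GH against PBS was 0.11, beside 0.00 over all 14235 genes and -0.01 over the 7471 other genes in the same range of expression. Of the 81 members 75 (92.6%) had a value above 0, against 50.1% of all genes tested, and 61 did with scaling to library totals in place of TMM. Adjusted p was under 0.05 in the higher direction for 1 member and in the lower direction for 0. Over all genes 4.79% passed in either direction, 2.27% higher and 2.52% lower, so the number of members that passed is not above the background. At an unadjusted p under 0.05, 15 members were higher (18.5%, against 9.15% of all genes) and 0 were lower (against 9.83%). The members varied together among libraries, as described below, so the genes in these counts are not independent of each other. DESeq2 called 3 members higher (Rplp0, Rpl22l1 and Rpl29), with 3.5% of the genes it gave an adjusted p, and 0 lower. The median half-width of a member's 95% interval was 0.17, larger than the median change itself. Fewer cells of a type and less RNA per cell cannot be told apart in such bulk samples.

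**Figure D1:**
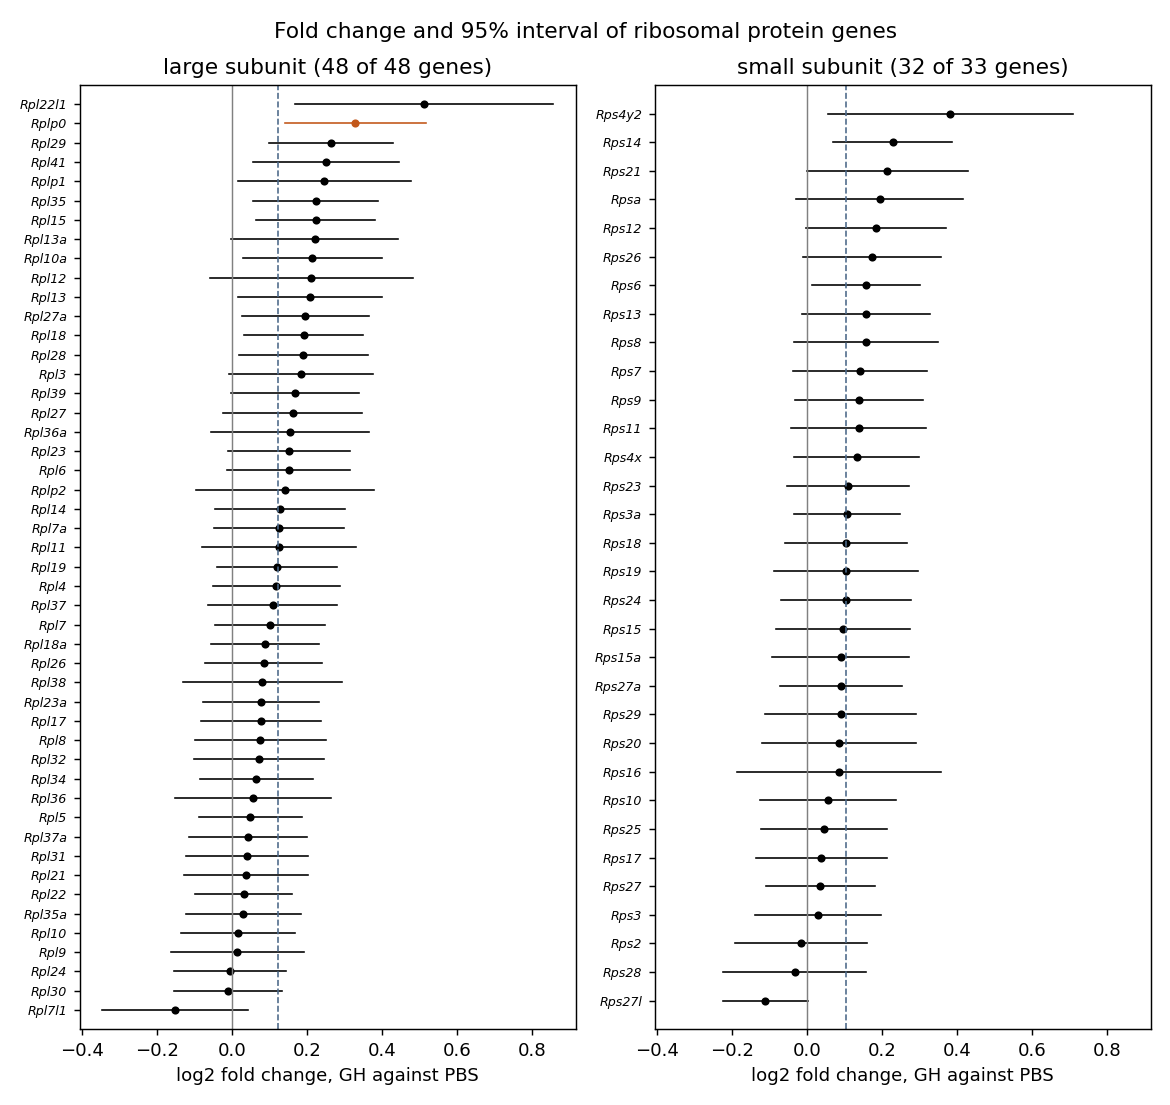
Log2 fold change of GH against PBS (horizontal axis) with its 95% interval for the 48 large subunit and 32 of the 33 small subunit genes, ordered by value. The dashed line is the median of the whole subunit (0.12 and 0.10), and the only gene past an adjusted p of 0.05, Rplp0, is orange.

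The 2 subunits had similar medians, while more genes of the large subunit had a small unadjusted p. The 48 large subunit genes had a median log2 fold change of 0.12, with 45 above 0 and 12 of 48 higher at an unadjusted p under 0.05. For the 33 small subunit genes the median was 0.10, with 30 above 0 and 3 of 33 (9.09%) higher at that p, close to the 9.15% of all genes. The difference between the subunits was not tested. Summed counts of the large subunit were 1.465 ± 0.020 times those of the small subunit in PBS (SD, n = 6; 1.44 to 1.49) and 1.497 ± 0.018 times in GH (SD, n = 6; 1.47 to 1.52). These ranges overlapped.

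Among libraries the members moved together, and the spread inside the PBS group was wider than the difference between the groups. In PBS replicate 5, 79 of the 81 genes lay above their PBS mean, by a median of 0.25 on the log2 scale. In PBS replicate 2, 0 of the 81 did, with a median deviation of -0.25. PBS replicate 2 held the lowest value of all 12 libraries for 72 members. The highest value of all 12 lay in GH replicate 1 for 33 members and in PBS replicate 5 for 30. All members together took 0.952% ± 0.110 of the counts in PBS (SD, n = 6), from 0.797% in replicate 2 to 1.12% in replicate 5. In GH the share was 0.994% ± 0.059 (SD, n = 6), from 0.913% to 1.06%, inside the range of PBS. Within a group the median coefficient of variation of a member was 12.4% in PBS and 7.34% in GH, where all genes tested had 14.95% and 12.97%. For the other genes in the same range of expression it was 10.95% in PBS and 8.9998% in GH, so the members' value was above theirs in PBS and below it in GH.

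**Figure D2:**
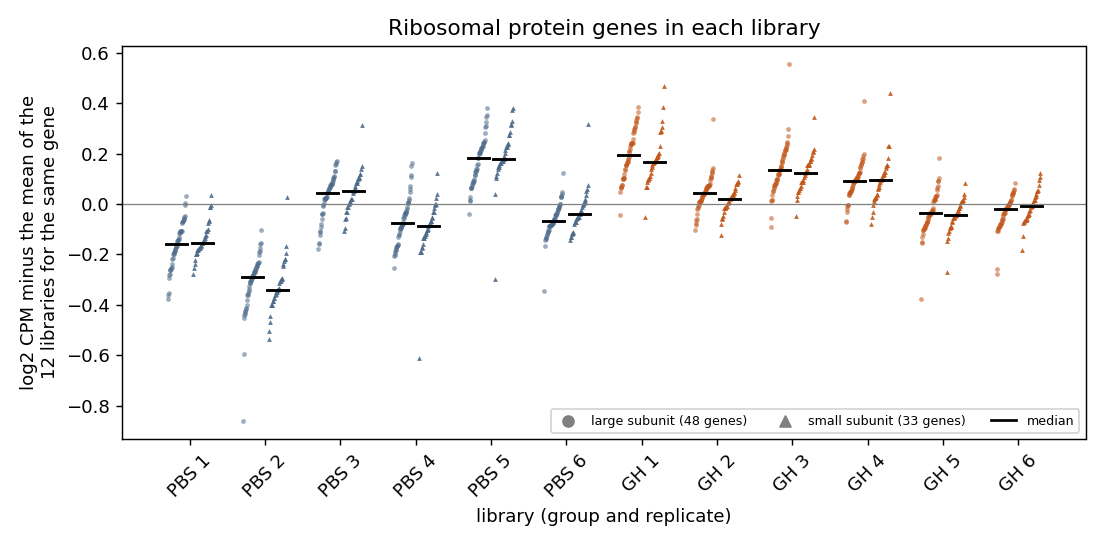
Log2 counts-per-million (CPM) of each ribosomal protein gene minus that gene's mean over the 12 libraries (vertical axis), by library; circles are large subunit genes, triangles small subunit genes, and black bars medians. PBS replicate 2 lies lowest and PBS replicate 5 is level with GH replicate 1, the highest GH library, for both subunits.

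GH and PBS values overlapped for all 81 members, so 0 showed complete separation, while 1.45% of all genes tested were separated with GH higher. For 55 members (67.9%) at least 5 of the 6 GH libraries lay above the PBS mean, as for 24.9% of all genes tested, and for 30 of these members (37.0%) all 6 did, as for 10.7% of all genes. PBS replicate 5 weighed on this: without it, 13 members passed at an adjusted p under 0.05, all higher (2.86% of all genes then tested passed in that direction), and the median of the members was 0.16. The 13 were Rplp0, Rplp1, Rpl10a, Rpl13, Rpl13a, Rpl18, Rpl28, Rpl29, Rpl35, Rpl41, Rps6, Rps14 and Rps21. Without GH replicate 6, 2 passed (Rplp0 and Rpl22l1), and leaving out any 1 of the 10 other libraries gave 0. The lowest of these medians was 0.06, without PBS replicate 2. No label sets these libraries apart, and none is left out of the values that follow unless this is said.

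Of 6 erythroid markers 4 were in the table, 3 were tested and 1, Alas2, rose. The summed level of the 4 was 59.0 to 192 CPM in PBS and 174 to 270 CPM in GH. That sum includes Alas2, and the 2 other tested markers did not pass. Over the 3 tested the median coefficient of variation was 107% in PBS and 64.7% in GH. Alas2, the haem synthesis enzyme of red cell precursors, rose from 77.6 ± 21.5 to 171 ± 21.6 CPM (SD, n = 6 each; adjusted p = 0.00302). PBS replicate 5, with the highest ribosomal protein levels in its group, also had the highest erythroid sum in it, 192 CPM. GH replicate 5, with the highest erythroid sum of all 12 libraries, 270 CPM, held the lowest GH value for 35 members. Red cell precursors are rich in ribosomes, and the part of these cells in the members' values was not tested. The 7 hepatocyte markers in the table, of 8 listed, summed to 97941 to 113956 CPM in PBS and 78472 to 105476 CPM in GH. No marker of that list passed the test. At an unadjusted p under 0.05, 2 were lower (28.6%, against 9.83% of all genes) and 1 was higher (14.3%, against 9.15%). For 1 of the 7 every GH library lay below every PBS library, as for 245 of all 14235 genes tested. Of the lists for Kupffer cells, sinusoidal endothelium, stellate cells, cholangiocytes, lymphocytes and neutrophils, only the stellate and fibroblast marker Dcn passed, and it fell. Just 1 of 9 lymphocyte and 1 of 5 neutrophil markers had enough counts to be tested.

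The stalk of the large subunit, built from Rplp0 with the acidic proteins Rplp1 and Rplp2, binds the translation factors that hydrolyse GTP. Rplp0 (ENSMUSG00000067274, chromosome 5, 115559467 to 115563727, plus strand, mm10) had a lowest, median and highest level of 243, 288 and 354 CPM in PBS. In GH these were 325, 355 and 422 CPM. The highest PBS value came from replicate 5 and lay inside the GH range, while the other 5 PBS libraries lay below all 6 GH libraries. Its mean rose from 290 ± 36.8 to 364 ± 34.4 CPM (SD, n = 6 each), a log2 fold change of 0.33 ± 0.09 (SE; 95% interval 0.14 to 0.52; adjusted p = 0.0445). That call was lost in 10 of the 12 fits that left out 1 library, with adjusted p between 0.00816 and 0.113, and it held without PBS replicate 5 and without GH replicate 6. With all 12 libraries it was also lost with scaling to library totals (adjusted p = 0.0789) and with a replicate block (adjusted p = 0.0993).

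Rplp1 had 170, 205 and 286 CPM as lowest, median and highest in PBS, and 230, 239 and 288 CPM in GH. Here too PBS replicate 5 was the highest PBS library and close to the top of the GH range, and the log2 fold change of 0.25 did not pass (adjusted p = 0.230). Without that library Rplp1 passed at 0.35 (adjusted p = 0.0211). It failed in the 11 other edgeR fits that left out 1 library, with values down to 0.19 and adjusted p up to 0.401. Rplp2 ran from 51.4 through 63.4 to 90.7 CPM in PBS and from 64.4 through 72.0 to 83.5 CPM in GH. The GH values of Rplp2 lay wholly within the PBS range, at a log2 fold change of 0.14 (adjusted p = 0.545). The 3 stalk genes thus had positive values of different size, and differences among them were not tested.

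Rpl22l1, a paralogue of Rpl22 that can take its place in the large subunit, had the highest log2 fold change of all members. Its lowest, median and highest levels were 11.4, 17.3 and 22.98 CPM in PBS and 17.1, 26.4 and 30.4 CPM in GH. Only GH replicate 6, at 17.1 CPM, lay below the PBS mean. The log2 fold change was 0.51 ± 0.16 (SE; 95% interval 0.17 to 0.86) and did not pass (adjusted p = 0.0900). Without GH replicate 6 it passed at 0.60 (adjusted p = 0.0221), and DESeq2 called it with all 12 libraries (adjusted p = 0.0314). In the 11 other edgeR fits that left out 1 library Rpl22l1 failed, with values down to 0.41 and adjusted p up to 0.174. Rpl22 itself had 85.4, 95.3 and 104 CPM in PBS and 89.3, 98.2 and 102 CPM in GH. Its groups overlapped almost fully, and its 95% interval on the log2 scale, -0.10 to 0.16, lies below the point estimate of Rpl22l1. The difference between the pair was not tested.

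Rpl29 and Rpl41, a basic surface protein and the shortest protein of the ribosome, stood next in the large subunit. Levels of Rpl29 in PBS ran from 65.3 through 71.4 to 83.2 CPM, and in GH from 75.8 through 83.6 to 96.7 CPM. Only PBS replicate 5 reached into the GH range, and the log2 fold change was 0.26 ± 0.08 (SE; adjusted p = 0.0654). For Rpl41 the PBS levels were 151, 170 and 226 CPM as lowest, median and highest, and the GH levels 195, 203 and 243 CPM. Its PBS replicate 5 exceeded 5 GH libraries, and the log2 fold change was 0.25 ± 0.09 (SE; adjusted p = 0.142). Without that library both passed, Rpl29 at 0.31 (adjusted p = 0.0185) and Rpl41 at 0.33 (adjusted p = 0.0123). Both failed in the 11 other edgeR fits that left out 1 library. Values then fell as low as 0.23 for Rpl29 (adjusted p up to 0.151) and 0.20 for Rpl41 (up to 0.284).

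**Figure D3:**
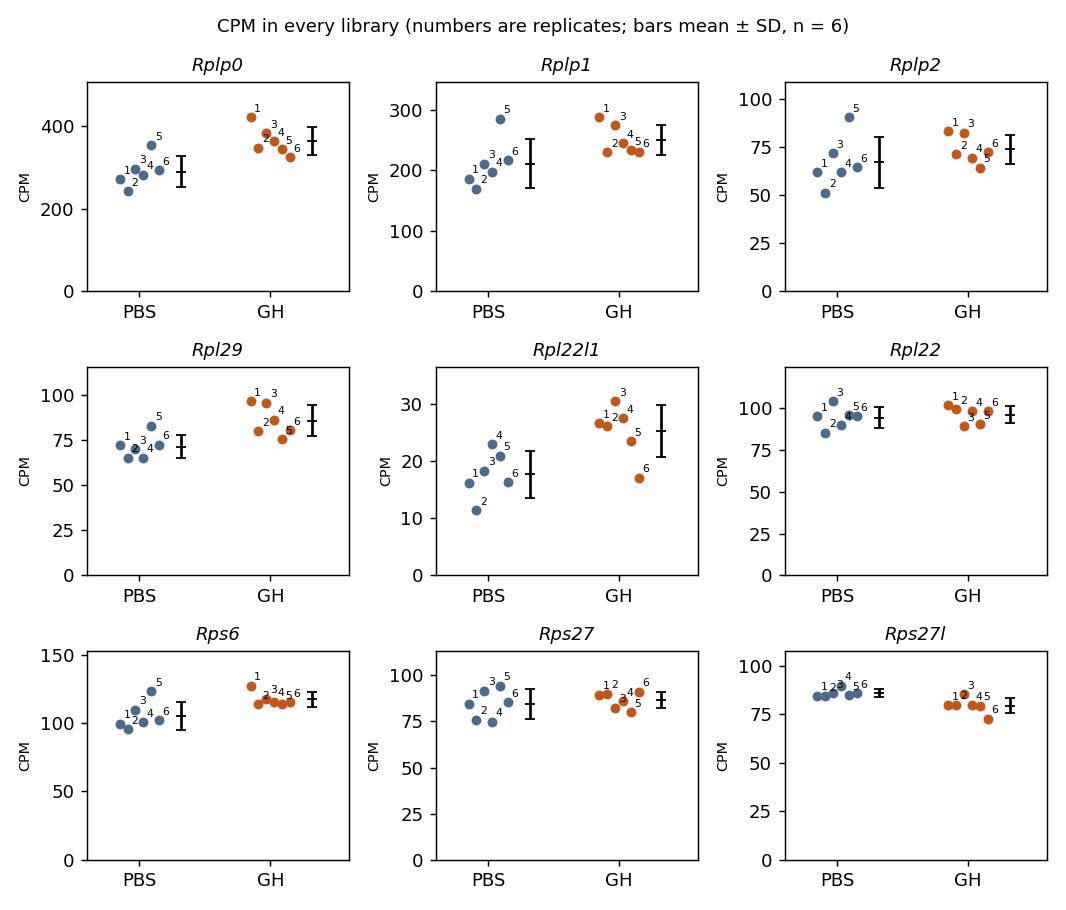
CPM (vertical axis, from 0) of 9 ribosomal protein genes in every library, numbered by replicate, with mean ± SD of 6 libraries beside each group. The stalk gene Rplp0 has 5 PBS libraries below all GH libraries and PBS replicate 5 at 354 CPM within them, whereas Rpl22, Rps27 and Rplp2 overlap broadly.

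None of the large subunit proteins described next, chosen for their sites in the ribosome or for roles beyond translation, passed the test with all 12 libraries, and their log2 fold changes ran from 0.01 to 0.22. Rpl13a, which can leave the ribosome to silence inflammatory messenger RNAs, ran from 216 through 260 to 370 CPM in PBS and from 295 through 307 to 355 CPM in GH. PBS replicate 5, at 370 CPM, was the highest of all 12 libraries, and the log2 fold change was 0.22 (adjusted p = 0.269). Exons of Rpl13a share 621 bases with those of Flt3l on the same strand, and Flt3l held a mean of only 57.8 counts. Rpl5 and Rpl11, which bind the 5S ribosomal RNA and can together restrain MDM2, had log2 fold changes of 0.05 (95% interval -0.09 to 0.18) and 0.12 (-0.08 to 0.33). Neither passed, and their groups overlapped. Rpl3, at the entrance to the peptidyl transferase centre, had 110, 140 and 164 CPM in PBS against 139, 160 and 171 CPM in GH, a log2 fold change of 0.18 (adjusted p = 0.286). Rpl10, which joins late and completes that centre, had a value of 0.01 (adjusted p = 0.944). Rpl10a gave 0.21 (adjusted p = 0.194) and Rpl38, known for its part in translating Hox messenger RNAs, 0.08 (adjusted p = 0.730). The 95% interval of Rpl10a, 0.03 to 0.40, lay above 0 (edgeR, unadjusted p = 0.0268), while those of the others in this group included 0.

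At the low end of the large subunit stood Rpl7l1, a paralogue of Rpl7. Its levels were 41.2, 54.8 and 63.4 CPM in PBS as lowest, median and highest, and 41.5, 47.96 and 52.2 CPM in GH. The PBS mean, 52.7 CPM, exceeded each of the 6 GH libraries, and the log2 fold change was -0.15 ± 0.09 (SE; adjusted p = 0.400). Rpl30 had a value of -0.01 and Rpl9 of 0.01, and the sign of each turned when single libraries were left out. The row named Rpl24, at -0.01, carries an identifier that GENCODE M21 gives to Zbtb11, so its values may not belong to Rpl24.

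In the small subunit Rps6, the classical substrate of the S6 kinases in the mTOR pathway, ran from 95.5 through 102 to 124 CPM in PBS. In GH it ran from 114 through 116 to 128 CPM. Only PBS replicate 5 overlapped the GH libraries. The log2 fold change was 0.16 ± 0.07 (SE; adjusted p = 0.217), and without that library 0.21 (adjusted p = 0.0457). Rps6 failed in the 11 other edgeR fits that left out 1 library, with values down to 0.13 and adjusted p up to 0.376. Rps14, which sits in the platform near the messenger RNA exit, had 85.4, 103 and 123 CPM in PBS and 118, 121 and 128 CPM in GH. Its log2 fold change was 0.23 ± 0.08 (SE; adjusted p = 0.101). Rps21 had a value of 0.21 (adjusted p = 0.267) and Rpsa, also known as the laminin receptor, of 0.19 (adjusted p = 0.341). For Rps14, Rps21 and Rpsa each GH library exceeded every PBS library except replicate 5.

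Rps27 and its paralogue Rps27l, a p53 target in other tissues, gave values of opposite sign. Rps27 had 74.8, 85.0 and 94.4 CPM in PBS as lowest, median and highest, and 80.2, 87.8 and 91.2 CPM in GH. The GH libraries of Rps27 lay within the PBS range, at a log2 fold change of 0.04 (95% interval -0.11 to 0.18). Rps27l had 84.2, 85.3 and 89.8 CPM in PBS and 72.7, 79.6 and 85.4 CPM in GH. All 6 GH libraries were below the PBS mean of 85.8 CPM, and 1 overlapped the PBS range. The log2 fold change of Rps27l was -0.11 ± 0.05 (SE; 95% interval -0.22 to 0.00; adjusted p = 0.269). Its coefficient of variation in PBS was 2.38%, against a median of 12.4% over the members, and PBS replicate 5 was not its highest PBS library. The difference between the paralogues was not tested.

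Rps4x, the X-linked form of Rps4, had 143, 176 and 202 CPM in PBS and 174, 192 and 200 CPM in GH, a log2 fold change of 0.13 (adjusted p = 0.395). The row named Rps4y2 is annotated by GENCODE M21 as Rps4l, a processed copy on chromosome 6, and it had the highest value of the small subunit. That value was 0.38 ± 0.15 (SE; 95% interval 0.05 to 0.71; adjusted p = 0.189), at 9.16 ± 2.30 CPM in PBS and 11.9 ± 2.01 CPM in GH (SD, n = 6 each), with overlapping groups. Rps3, a protein of the messenger RNA entry site with a further role in DNA repair, had a value of 0.03 (adjusted p = 0.894). Rps19, mutated in Diamond-Blackfan anaemia, had 0.10 (adjusted p = 0.596). Rps27a, made as a fusion with ubiquitin, had 0.09 (adjusted p = 0.586). Rps2 and Rps28 had values of -0.02 and -0.03, which turned positive without PBS replicate 5. None of these passed the edgeR test at an adjusted p under 0.05, though the 95% interval of Rps4y2 lay above 0.

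Levels can be compared between genes only per length, here as mean CPM per kilobase of merged exons in PBS. Among the highest were Rplp1 with 423, Rps2 with 327, Rpl4 with 282, Rps18 with 264 and Rpl41 with 245. Lowest were Rps4y2 with 9.71, Rps15a with 11.5, Rpl7l1 with 16.8, the row named Rpl24 with 19.7, Rps20 with 23.8 and Rpl18 with 24.8. The low values of Rps15a, Rps20 and Rpl18 go with merged exons of 5395, 3706 and 3413 bases, against a median of 1048 bases in the large subunit and 943 in the small. Medians per kilobase were 83.0 for the large and 116 for the small subunit, and 4.28 for all genes tested that had a length. Per kilobase of the median annotated coding transcript, Rpl18 had 125 and was not among the lowest, Rps24 had 335 where merged exons gave 90.2, and Rplp1 and Rps2 were still the highest, at 423 and 379. A level per annotated exon depends on how much of the annotated gene is transcribed and on reads placed elsewhere. The largest coefficients of variation in PBS were those of Rps4y2 and Rps16 in the small and Rpl22l1 and Rpl12 in the large subunit.

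Reads placed elsewhere are many in this family, because its messenger RNAs have left processed copies all over the genome. With at least 90% identity over at least 50% of the transcript, 712 annotated pseudogenes matched a member, and 578 of them had counts. The copies matched 75 members. Over all 81 members, including those without a copy, a median of 10.3% of the counts of a member and its copies together lay at the copies. For Rps7 this share was 49.9%, for Rpl38 46.4%, for Rpl27a 44.3%, for Rps29 43.1% and for Rps16 42.6%, and 19 members exceeded 25%. Rpl22l1 had 36.8% and Rplp0 6.64%. Over all members the copies took 13.6% ± 0.253 (PBS) and 13.9% ± 0.130 (GH) of these counts (SD, n = 6 each), so it differed little between libraries (13.3% to 14.1%). Levels of these members are uncertain, since reads of a member and of a near-identical copy may be split between them or placed at the wrong one. Adding the counts at the copies to each member left 1 member past the threshold and a median of 0.12. Of 219 pseudogenes named with a -ps suffix, 47 were tested: their median was 0.11, and 0 passed by edgeR or DESeq2. Of the 47, 10 were higher at an unadjusted p under 0.05 (21.3%, against 9.15% of all genes) and 0 lower (against 9.83%). The smallest p among them was that of Rpl7a-ps5 (0.902 ± 0.138 CPM in PBS, 1.35 ± 0.176 CPM in GH, SD, n = 6 each; adjusted p = 0.0864).

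**Figure D4:**
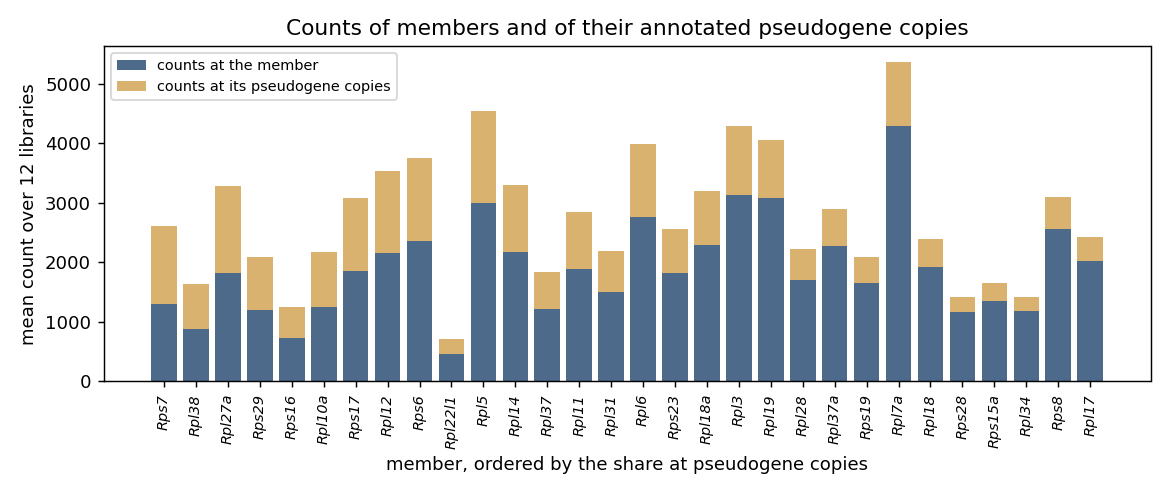
Mean count over 12 libraries (vertical axis) at each of the 30 ribosomal protein genes with the largest share of counts at annotated pseudogene copies (blue) and at those copies (yellow). For Rps7, at the left, 49.9% of the counts lie at copies.

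Ribosomal protein genes also host small nucleolar RNAs, guides for ribosomal RNA modification that are cut from introns. There were 57 such genes inside 30 members, 20 of the large and 10 of the small subunit, and all 57 were tested. Their median log2 fold change was 0.03 and 0 passed. With an unadjusted p under 0.05, 2 were higher (3.51%, against 9.15% of all genes) and 1 lower (1.75%, against 9.83%). The 30 host members had a median of 0.12 and the 51 other members one of 0.10.

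The ribosomal proteins that the symbol selection missed did not differ between the groups by the test. Gnb2l1 (RACK1), a scaffold on the small subunit, had 273 ± 32.9 CPM in PBS and 308 ± 23.7 CPM in GH (SD, n = 6 each; log2 fold change 0.18, adjusted p = 0.269). Fau and Rpl36al had values of 0.06 and -0.07, and the median of the 4 was 0.02. An unadjusted p under 0.05 was found for 0 of the 4, and DESeq2 called 0.

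Of 17 elongation factors and other messenger RNAs with a TOP tract 0 passed by edgeR. Their median log2 fold change was 0.08, and 10 of the 17 (58.8%) lay above 0, beside 92.6% of the ribosomal proteins. At an unadjusted p under 0.05, 5 were higher (29.4%, against 9.15% of all genes) and 1 was lower (5.88%, against 9.83%). DESeq2 called 2 higher. In 2 of the 17 (11.8%) every GH library lay above every PBS library, as in 1.45% of all genes tested. Hnrnpa1, a splicing factor, had the smallest p, at 24.6 ± 1.1999 CPM in PBS and 21.6 ± 1.57 CPM in GH (SD, n = 6 each; adjusted p = 0.131).

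The factors that assemble ribosomes differed in the other direction, and here more genes passed. Of 37 ribosome biogenesis genes 10 fell (27.0%, against 2.52% of all genes tested) and 0 rose. A log2 fold change below 0 was found for 34 of them, as for 7098 of all 14235 genes tested. The median was -0.25, beside 0.11 for the ribosomal proteins. Ddx21, a helicase of rRNA transcription and processing, fell from 37.9 ± 3.96 to 29.6 ± 1.23 CPM (SD, n = 6 each; log2 fold change -0.36, adjusted p = 0.00828). Gnl3 (nucleostemin), a nucleolar GTPase, fell from 25.01 ± 4.96 to 15.5 ± 2.47 CPM (SD, n = 6 each; log2 fold change -0.69, adjusted p = 0.00862). The export adaptor of the large subunit Nmd3, the assembly factors Rrs1 and Ltv1 and the snoRNP core protein Nop56 fell by 0.35, 0.52, 0.43 and 0.52 on the log2 scale. In Ddx21, Nmd3 and Rrs1 every GH library lay below every PBS library. Such complete separation held for 4 of the 37 genes and for 245 of all 14235 genes tested. The nucleolar proteins Fbl and Ncl had values of -0.09 and 0.04 (adjusted p = 0.749 and 0.800). The number that fell was between 4 and 10 when single libraries were left out, and it was 4 without PBS replicate 3, PBS replicate 4 or GH replicate 4, 5 without GH replicate 3, and 6 without GH replicate 2, 5 or 6. This list was set with earlier results of these data known, and the difference between its median and that of the ribosomal proteins was not tested.

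**Figure D5:**
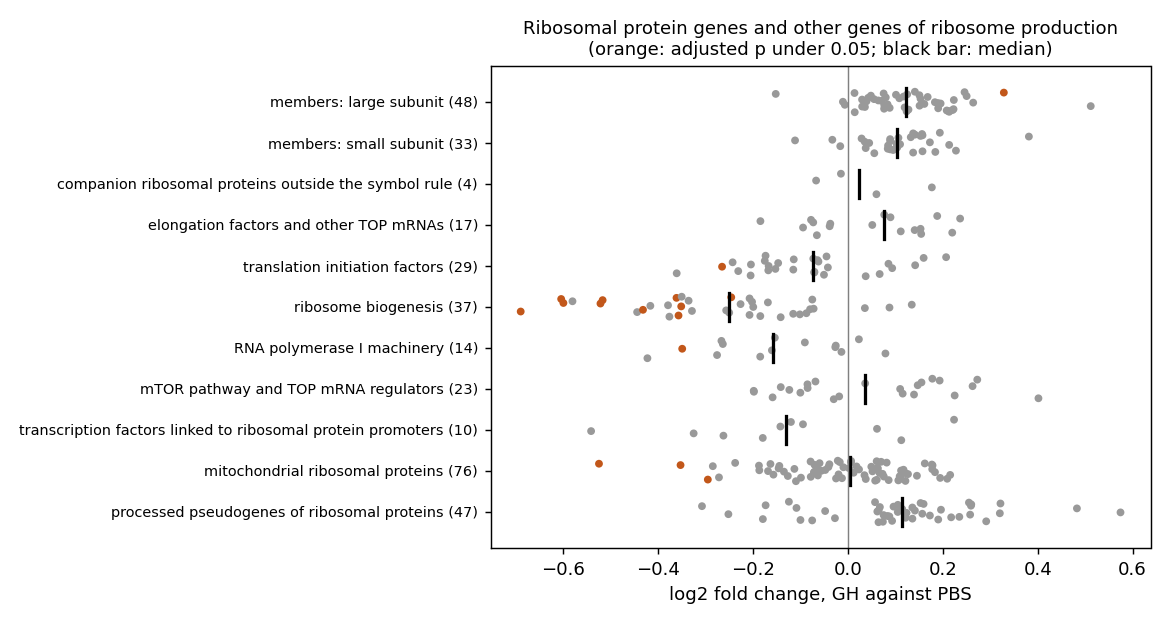
Log2 fold change of GH against PBS (horizontal axis) of each gene in the 2 subunits and 9 further lists, with the number tested in brackets; black bars are medians and orange marks an adjusted p under 0.05. Ribosomal protein genes and their pseudogenes centre near 0.11, and the ribosome biogenesis list centres at -0.25 with 10 genes past the threshold.

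RNA polymerase I, which transcribes ribosomal RNA, had 1 of 14 genes pass of 15 listed (7.14%, against 2.52% of all genes that were lower). This was its initiation factor Rrn3, which fell from 24.6 ± 2.89 to 19.3 ± 1.19 CPM (SD, n = 6 each; log2 fold change -0.35, adjusted p = 0.0195), and the list's median was -0.16. Lower at an unadjusted p under 0.05 were 6 of the 14 (42.9%, against 9.83% of all genes), and 0 were higher (against 9.15%). Of 29 translation initiation factors 1 fell (3.45%, near the 2.52% of all genes) and 0 rose, at a median of -0.07. It was Eif3d, a subunit of the factor that recruits the small subunit, at 61.1 ± 5.61 CPM in PBS and 50.8 ± 2.92 CPM in GH (SD, n = 6 each; adjusted p = 0.0357). Of the initiation factors 22 lay below 0 and 7 above. Lower at an unadjusted p under 0.05 were 11 (37.9%, against 9.83% of all genes), and 3 were higher (10.3%, against 9.15%).

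In the mTOR pathway and the regulators of TOP messenger RNAs, 0 of 23 genes passed by edgeR and the median was 0.04. At an unadjusted p under 0.05, 3 were higher (13.0%, against 9.15% of all genes) and 3 lower (13.0%, against 9.83%), and DESeq2 called 1 lower. The smallest p was that of Larp4b, an RNA-binding protein, at 95.1 ± 6.11 CPM in PBS and 82.8 ± 4.07 CPM in GH (SD, n = 6 each; adjusted p = 0.0734). Messenger RNA levels do not show the activity of this kinase pathway. Of 10 transcription factors linked to ribosomal protein promoters 0 passed by edgeR, 0 were higher and 3 lower at an unadjusted p under 0.05, and DESeq2 called 1 lower. Their median was -0.13, and the smallest p was that of Max, the partner of Myc (log2 fold change -0.33, adjusted p = 0.0782).

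Mitochondrial ribosomal proteins, which serve the separate ribosome of mitochondria, were centred at 0. All 76 were tested, with a median log2 fold change of 0.00 beside 0.11 for the cytosolic ones, and 39 lay above 0. Of the 76, 3 fell (3.95%, near the 2.52% of all genes), namely Mrps27 (log2 fold change -0.53), Mrps22 (-0.35) and Mrpl15 (-0.30), and 0 rose. At an unadjusted p under 0.05, 6 were higher (7.89%, against 9.15% of all genes) and 10 lower (13.2%, against 9.83%). DESeq2 called 1 higher.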

How the data were processed

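The authors deposited raw exonic read counts per gene for 12 libraries (38087 genes, 10628 without any count), not normalized. Per the labels' protocols, libraries came from total RNA depleted of ribosomal RNA with a stranded kit. The submitters' processing notes list STAR 2.4.0i and mm10. The sources used here do not name the counting program, its strand setting or its rule for multiply matching reads. The rule for such reads bears on members with near-identical copies. The labels leave unsaid whether the dose is per injection or per day.

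Counts were analysed with edgeR 4.0.16 in R 4.3.3: filterByExpr (minimum count 10), TMM scaling, and a robust quasi-likelihood fit on all genes with the group as the only term. The F test was two-sided, with Benjamini-Hochberg adjustment over the 14235 genes tested and a threshold of 0.05. CPM are TMM-scaled. The common biological coefficient of variation was 0.168. The fit was tested on simulated data. DESeq2 1.42.0, other scalings, no filter, single libraries left out, a replicate block and pseudogene counts added with matches from blastn 2.17.0 were alternatives. Adding counts of copies matched by sequence, and the alternatives for the biogenesis list, were chosen after seeing the data. Coordinates and lengths are from GENCODE M21 (mm10), start sequences from RefSeq (GRCm38.p6). The labels do not say whether libraries share cages or litters, so p-values reflect only the variation among the 12 livers sampled.

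Named genes were the members that passed, the 4 highest and 4 lowest log2 fold changes and the 3 highest and 3 lowest levels per kilobase in each subunit, the 2 most variable in PBS in each subunit, those nearest the mean of 100 counts, and members with paralogues or further roles. In each further list they were up to 6 that passed, or the smallest p. Named features outside this rule were named after their values were seen. A small number of named features are not reported here. The members and lists were chosen with earlier results of these data known.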

Additional observations from a re-analysis of the deposited data

Results flagged for a closer look

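Of 84 groups of 6 values examined, 7 held a value whose gap to its nearest neighbour, as a share of the group's range, exceeded Dixon's critical value for 95% confidence. Chance gives about 1 in 20 groups when groups are independent, but the members varied together among the same libraries, so these groups are not. In PBS replicate 5, Rpl41 stood at 226 CPM and Rps28 at 70.7 CPM, above the other PBS libraries. In GH replicate 1, Rps21 stood at 95.9 CPM, Rps20 at 113 CPM and Rps6 at 128 CPM, above the other GH libraries. Rpl9 was lower in GH replicate 5, at 93.0 CPM, than in the other GH libraries. Rps27l was higher in PBS replicate 4, at 89.8 CPM, than in the other PBS libraries.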

How the results depend on the processing

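The number of members higher in GH (1) was 0 with library totals alone as scaling, 3 with DESeq2, 0 to 13 with 1 library left out and 16 without GH replicate 6 and PBS replicate 5 together. In that last fit 1022 of 14238 genes passed in either direction, against 682 of 14235 in the main fit. Most members lay above their group mean in PBS replicate 5 and below it in GH replicate 6. Leaving out both therefore raises the members' values, and no pair with the opposite deviations was left out. No label states that equal replicate numbers share an origin, and correlations of same-numbered libraries ran from -0.17 to 0.15, so numbers were not taken as pairs. With a replicate block 0 members passed (median 0.12) and 5 ribosome biogenesis genes fell. Library totals moved the median of all genes to -0.06 and that of the members to 0.05, with 61 of 81 above 0. They turned the sign of Rpl9 (-0.045), Rps3 (-0.031), Rps27 (-0.024), Rpl5 (-0.011), Rpl10 (-0.045) and Rpl22 (-0.030). Without both libraries Rpl30 (0.043), Rpl24 (0.036), Rps28 (0.032) and Rps2 (0.050) turned positive, and 5 biogenesis genes fell. With 1 library left out the range was -0.044 to 0.032 for Rpl30, -0.043 to 0.026 for Rpl24, -0.051 to 0.054 for Rpl9, -0.080 to 0.045 for Rps28, -0.076 to 0.040 for Rps2, -0.016 to 0.090 for Rps3 and -0.030 to 0.039 for Rpl10. For biogenesis genes that fell it was 4 to 10. With library totals and DESeq2 in turn, 6 and 4 initiation factors, 4 and 3 polymerase I genes, 1 and 1 mTOR genes and 2 and 1 transcription factors were lower. DESeq2 called 2 TOP messenger RNAs and 1 mitochondrial ribosomal protein higher, and library totals gave 1 TOP messenger RNA and 7 mitochondrial ribosomal proteins lower. The cause of these shifts was not tested. Members held means from 224 counts upward, and 6 livers a group limit what the intervals can show.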
